A study of Mus musculus with 2 samples.

Results

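Liver sinusoidal endothelial cells (LSECs) line the hepatic capillaries and release ligands, called angiocrine factors, that act on hepatocytes, stellate cells and macrophages. The 9 ligand and ligand-binding genes described here lie outside the Wnt system: Hgf, Inhbb, Inhba, Fst, Fstl1, Gas6, Pros1, Il6 and Il33. They were found by their symbols among the 32285 genes counted, each symbol matching 1 gene. In LSECs, 6 of the 9 reached 5 CPM (counts per 1000000 UMIs) in at least 1 library.

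The data were 3′ single-cell RNA-seq counts of unique molecular identifiers (UMIs) from 2 libraries, each prepared from the pooled livers of 3 mice after magnetic enrichment of cells carrying CD146, a surface protein that LSECs share with endothelial cells (ECs) of larger vessels. The library labelled LSEC MAF KO came from mice with a Clec4g-iCre transgene (genotype tg/wt) and both Maf alleles floxed, termed Maf LSEC-KO. The Clec4g promoter directs the Cre recombinase to liver sinusoidal endothelium. The library labelled LSEC WT came, by the study's methods, from Cre-negative littermates that were Maf fl/fl or Maf fl/wt, and is called control. Floxed alleles were thus present in both conditions. Mice of 3 and 6 months and both sexes served the study as a whole, and the age of the pooled animals was not given in the sources used here. With 1 library per condition there is no replicate, so no test between conditions was possible. The 95% intervals below are exact and cover counting error only. Differences between animals, pools and library preparations cannot be told apart from the effect of the genotype.

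In all, 47681895 UMIs were counted over 5664 control barcodes, and 89872764 UMIs over 7091 barcodes of the Maf LSEC-KO pool. A total of 4961 and 5423 barcodes had at least 1500 UMIs and 750 genes, and 10 barcode sequences occurred in both libraries. LSECs were defined as cells of endothelial clusters without a UMI of Vwf, the von Willebrand factor gene of large-vessel and capillarized endothelium, and without doublet calls. This gave 4092 control LSECs (median 8384 UMIs) and 3119 Maf LSEC-KO LSECs (median 14244 UMIs). The endothelial marker Pecam1 was at 712 and 776 CPM, and the LSEC marker Stab2 at 1640 and 179 CPM. The targeted gene, Maf, was at 3479 CPM in control and 122 CPM in Maf LSEC-KO, with a UMI in 99.4% and 21.1% of LSECs. Another 160 control and 1131 Maf LSEC-KO endothelial cells carried Vwf UMIs and are described separately. A Vwf UMI was also held by 0% of control and 6.21% of Maf LSEC-KO T/NK cell-like and neutrophil-like cells. Whether RNA from lysed cells shaped this split, and thus the LSEC sets left after it, was not tested. The Vwf rule took 12.1% of the control cluster led by Rspo3, Wnt9b and Selp but 83.8% of its Maf LSEC-KO counterpart.

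The 9 genes serve separate signalling systems. Hepatocyte growth factor, encoded by Hgf, acts on the receptor Met and drives hepatocyte growth. Inhba and Inhbb encode the βA and βB chains of activins, dimeric ligands of the TGF-β family that signal through Acvr1b and Acvr2 receptors to Smad2 and Smad3, while follistatin (Fst) binds and neutralizes activins. Fstl1 encodes a secreted glycoprotein related to follistatin in sequence. Gas6 and protein S, the product of Pros1, are vitamin K-dependent ligands of the TAM receptors Tyro3, Axl and Mertk and support clearance of dying cells. Protein S is also an anticoagulant cofactor. IL-6 induces the hepatic acute-phase response through Il6ra and Il6st, and IL-33 is a nuclear alarmin that acts on Il1rl1 when released.

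Gas6, Inhbb and Il33 are the members at 5 CPM or more that were at least 2-fold lower in Maf LSEC-KO LSECs. The 250 bases before their RefSeq starts (for Il33, the first of its starts) are therefore shown, read 5′ to 3′ on the strand of the gene (GRCm38.p6, the mm10 build). Gas6 and Inhbb lie on the minus strand and Il33 on the plus strand, and the windows carry their positions. The sense of the windows of Inhbb and Il33 was checked on GENCODE transcripts. That of Gas6 is as RefSeq gives it, since its RefSeq start lies upstream of the GENCODE gene and the bases after it were not found in those transcripts. Capitals mark matches to GGGCGG or its reverse complement CCGCCC, the GC box bound by Sp1.
Gas6, chr8:13494536-13494785: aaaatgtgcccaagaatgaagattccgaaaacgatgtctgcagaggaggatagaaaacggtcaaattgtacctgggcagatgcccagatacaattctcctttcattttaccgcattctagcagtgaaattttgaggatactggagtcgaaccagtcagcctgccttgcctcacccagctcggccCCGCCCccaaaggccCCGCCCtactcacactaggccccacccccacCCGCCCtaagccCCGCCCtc
Inhbb, chr1:119422249-119422498: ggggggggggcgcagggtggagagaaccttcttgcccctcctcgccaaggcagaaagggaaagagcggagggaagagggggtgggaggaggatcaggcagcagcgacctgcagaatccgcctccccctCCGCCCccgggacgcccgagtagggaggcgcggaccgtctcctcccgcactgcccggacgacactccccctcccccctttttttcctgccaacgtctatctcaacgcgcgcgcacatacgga
Il33, chr19:29924863-29925112: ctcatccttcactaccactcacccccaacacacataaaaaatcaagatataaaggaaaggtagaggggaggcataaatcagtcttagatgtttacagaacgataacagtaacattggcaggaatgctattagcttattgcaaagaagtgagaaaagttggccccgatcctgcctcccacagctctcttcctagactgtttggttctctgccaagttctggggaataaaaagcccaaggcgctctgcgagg

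Promoter entries were matched for 8 of the 9 genes, with 10 starts in all. Besides the GC box, the 250-base windows were searched on both strands for TGCTGA, the core bound by 1 subunit in the Maf recognition element, and for TGANTCA, the AP-1 site, which the letters allow to overlap each other. TGCTGA occurred in the window of 0 of the 8 genes, against 16.1% of 32851 mouse promoter windows. TGANTCA occurred in 1 of the 8, Il6, against 6.75% of all windows. GC boxes occurred in 4 of the 8 (Gas6, Inhbb, Fstl1 and Pros1), against 32.7% of all windows. The RefSeq start of Fstl1 lies downstream of its GENCODE start, so that most of its window, with both of its GC boxes, falls in the untranslated first exon of a GENCODE transcript, and it is not printed. The windows of the second Hgf and Il33 starts lie within those genes as well. The windows of Inhbb and Fstl1 were both 68% G and C, those of Il33 45.2% and 39.6%. These matches describe letters in short windows and say nothing of binding elsewhere.

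To compare the ligands between the conditions, UMIs were summed over the LSECs of each library and divided by all UMIs outside mitochondrial and ribosomal protein genes. Of the 6 genes at 5 CPM or more, 3 were at least 2-fold lower in Maf LSEC-KO LSECs (Gas6, Il33 and Inhbb) and 1 was at least 2-fold higher (Fstl1), while Hgf and Pros1 were lower by less than 2-fold. Over all 10437 genes at that level, 5.01% were at least 2-fold lower and 11.5% at least 2-fold higher, and the median log2 ratio was 0.14. The median of the 6 genes was -1.29, a description of genes that passed the level filter and not of all 9.

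Gas6 (chr8:13465374-13494490) was lower in Maf LSEC-KO LSECs. Control LSECs held 11990 Gas6 UMIs, or 369 CPM (362.5 to 376), and Maf LSEC-KO LSECs 2231 UMIs, or 56.9 CPM (54.5 to 59.3). This was 6.49-fold lower, with a log2 ratio of -2.70 (-2.76 to -2.63). For shares of cells at equal total UMIs, 2700 UMIs were drawn at random from each cell. The 405 control and 166 Maf LSEC-KO LSECs with fewer were left out, leaving 3687 and 2953 cells. UMIs outside mitochondrial and ribosomal protein genes were not matched. They made up 32485340 of 36977604 UMIs in control LSECs and 39243336 of 50988131 in Maf LSEC-KO LSECs. Thinned in this way, 50.2% of control and 10.5% of Maf LSEC-KO LSECs held a Gas6 UMI. Without thinning the shares were 73.4% and 32.5%. Tmem255b overlaps Gas6 on the opposite strand.

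Pros1 (chr16:62854307-62929346), the gene of the other TAM ligand, was detected in most LSECs of both libraries, 80.2% of control and 79% of Maf LSEC-KO cells. Its level was 411 CPM (404 to 418) in control LSECs and 238.5 CPM (234 to 243) in those of the Maf LSEC-KO library, giving a log2 ratio of -0.79 (-0.82 to -0.75). Thinned to equal total UMIs, the shares of cells were 57.3% and 37.5%. The counting intervals did not overlap, but the difference stayed below 2-fold.

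Hgf (chr5:16553495-16620152) had 4629 UMIs in control LSECs, or 142.5 CPM (138 to 147). Maf LSEC-KO LSECs had 3093 UMIs, or 78.8 CPM (76.1 to 81.6). The log2 ratio was -0.85 (-0.92 to -0.79). The thinned shares of positive cells were 24.6% and 12.3%. With UMIs of all genes as the denominator the log2 ratio was -1.05, past 2-fold.

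Among the activin genes, Inhbb (chr1:119415465-119422248) had 1341 UMIs in control LSECs, or 41.3 CPM (39.1 to 43.6). Maf LSEC-KO LSECs had 485 UMIs, or 12.4 CPM (11.3 to 13.5). This was 3.34-fold lower, with a log2 ratio of -1.74 (-1.89 to -1.59), and the thinned shares of positive cells were 7.73% and 2.34%. Inhba (chr13:16011851-16031621) was nearly undetected, with 9 UMIs in 9 of the 4092 control LSECs and 10 UMIs in 10 of the 3119 Maf LSEC-KO LSECs. Fst (chr13:114452290-114458951), the activin antagonist, had 9 UMIs in 3 control LSECs, 6 of them in 1 cell, and 1 UMI in Maf LSEC-KO LSECs. Activin βB was therefore the activin chain whose transcripts were measurable in LSECs.

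Fstl1 (chr16:37776873-37836514) moved the opposite way. Control LSECs held 90 Fstl1 UMIs, or 2.77 CPM (2.23 to 3.41), and Maf LSEC-KO LSECs 545 UMIs, or 13.9 CPM (12.8 to 15.1). The level was 5.01-fold higher, with a log2 ratio of 2.33 (2.0 to 2.66). Fstl1 UMIs were present in 1.32% of control and 12.6% of Maf LSEC-KO LSECs, or 0.434% and 2.88% after thinning. The log2 ratio was 3.25 without the Rspo3-led and Gja5-led clusters, an alternative added after the data were seen, 3.09 as a mean of CPM per cell and 2.96 without LSECs that held a UMI of another cell type's marker.

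Il33 (chr19:29925114-29960718) was low in both libraries. It had 371 UMIs in control LSECs, or 11.4 CPM (10.3 to 12.6). Maf LSEC-KO LSECs had 88 UMIs, or 2.24 CPM (1.80 to 2.76). This was 5.09-fold lower, with a log2 ratio of -2.35 (-2.70 to -2.01). With Vwf-positive ECs counted in, the log2 ratio was -1.14, since in the Maf LSEC-KO library those cells held 284 Il33 UMIs, and the Rspo3-led cluster, of which the Vwf rule took 83.8%, was highest among its endothelial clusters. Il6 (chr5:30013114-30019981) had 0 UMIs in LSECs of either library. A count of 0 allows a level of up to 0.0924 CPM in control and 0.0765 CPM in Maf LSEC-KO LSECs, taking 3 counts as the limit.

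**Figure D1:**
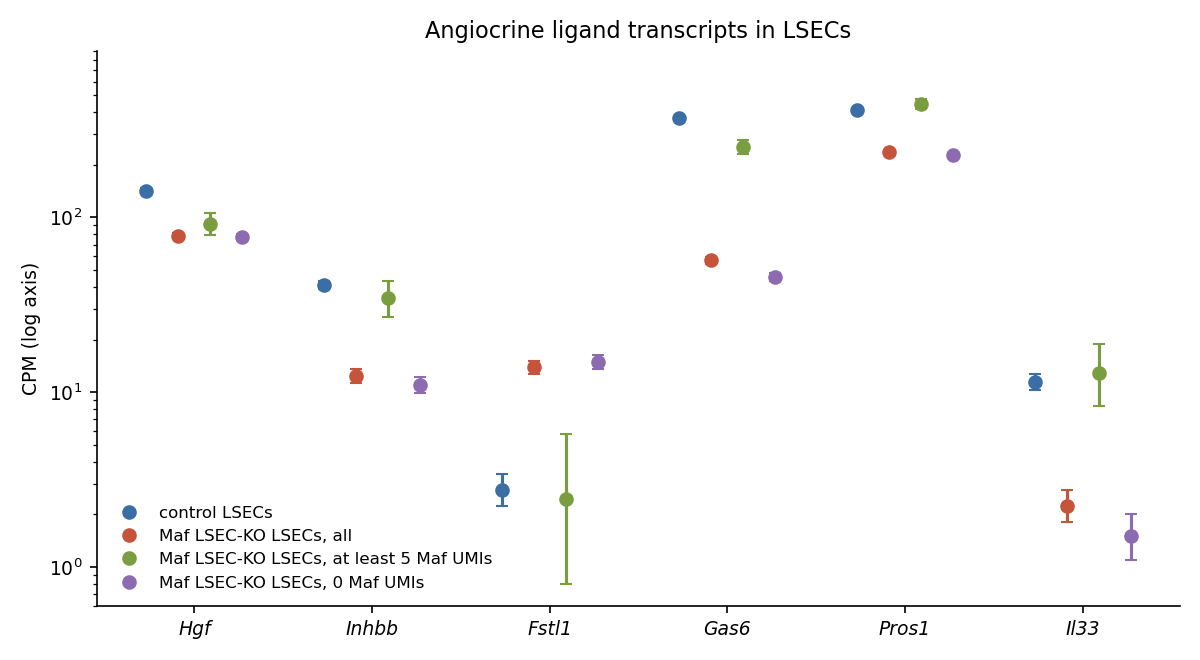
Level of 6 ligands in LSECs in CPM on a log axis, with exact 95% counting intervals, in control cells, all Maf LSEC-KO cells, and Maf LSEC-KO cells with at least 5 or with 0 Maf UMIs. Gas6 is at 369 CPM in control and 56.9 CPM in all Maf LSEC-KO LSECs, and Fstl1 is the gene with the higher level in the knockout library.

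RNA from lysed cells can place UMIs in droplets of other cells. The 71 control cells that were T/NK cell-like or neutrophil-like (median 4311 UMIs) were taken as a reference for free RNA. Whether they express these ligands themselves was not tested. Of these cells, 8.45% held a Gas6 UMI, 11.3% an Hgf UMI, 14.1% a Pros1 UMI, 2.82% an Inhbb UMI, 2.82% an Il33 UMI and 0% an Fstl1 UMI. In the 145 such cells of the Maf LSEC-KO library (median 4745 UMIs), the shares were 2.07%, 2.76%, 7.59%, 0.69%, 0% and 0%. LSECs were deeper, so the shares were also set side by side at 2700 UMIs per cell, which 61 and 136 of these cells reached. For Gas6 (3 and 0 cells), Hgf (4 and 3) and Pros1 (5 and 5), the exact 95% intervals of the background shares ended at no more than 18.1% in control and 8.37% in Maf LSEC-KO, below the thinned LSEC shares of each gene. For Inhbb, 1 cell was positive in each library, and the intervals (0.0415% to 8.80% and 0.0186% to 4.03%) held the thinned LSEC shares of 7.73% and 2.34%. These cells thus cannot tell Inhbb apart from background at 2700 UMIs per cell. An Il33 or Fstl1 UMI was held by 0 of them in either library, for which the exact 95% intervals ended at 5.87% in control and 2.68% in Maf LSEC-KO. The Il33 share of control LSECs was 6.31% at full depth and 2.74% thinned, below the former limit, so the same holds for it. The thinned Fstl1 share of Maf LSEC-KO LSECs, 2.88%, lay narrowly above the latter limit and that of control LSECs, 0.434%, below the former. As levels at full depth, Inhbb in the T/NK cell-like and neutrophil-like cells was at 13.8 CPM in control and 1.51 CPM in Maf LSEC-KO. In LSECs it was at 41.3 and 12.4 CPM. Il33 was at 5.52 and 0 CPM in those cells, against 11.4 and 2.24 CPM in LSECs. The background levels of both genes rest on few positive cells. The part of free RNA in these levels was not tested.

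Some Maf LSEC-KO LSECs kept Maf. The 197 cells with at least 5 Maf UMIs were compared with the 2460 cells with 0. Gas6 was at 253 and 45.5 CPM, Inhbb at 34.5 and 11 CPM, Il33 at 12.8 and 1.504 CPM, and Pros1 at 444 and 227 CPM. Fstl1 was at 2.46 CPM in the cells with Maf, from 5 UMIs, and 14.8 CPM in those without, and Hgf at 92.1 and 77.1 CPM. Set against control LSECs, the cells that kept Maf had log2 ratios of 0.11 (0.01 to 0.21) for Pros1, -0.26 (-0.63 to 0.09) for Inhbb, 0.16 (-0.47 to 0.74) for Il33, -0.17 (-1.83 to 1.11) for Fstl1, -0.54 (-0.67 to -0.42) for Gas6 and -0.63 (-0.85 to -0.42) for Hgf. Gas6 and Hgf in these cells thus remained below the control level by more than counting error, while the intervals of Inhbb, Il33 and Fstl1 held 0. Both sets of cells came from the same library, so preparation was shared, but Maf UMIs were read in the same cells as the ligands.

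Central and portal sinusoids differ in gene expression, and the Wnt ligand gene Wnt2 and the R-spondin gene Rspo3 mark LSECs near the central vein. To ask whether the ligands follow this axis, LSECs were thinned to 2700 UMIs, those with fewer again left out, and called positive if they kept a UMI of Wnt2 or Rspo3. This gave 1474 positive and 2213 negative control cells, but only 213 positive and 2740 negative Maf LSEC-KO cells, since Wnt2 was at 281 CPM in control and 35.1 CPM in Maf LSEC-KO LSECs, and Rspo3 at 74.1 and 7.31 CPM. Markers not used for the split moved with it. In control, Wnt9b was at 32.3 and 5.28 CPM, Kit at 542 and 247 CPM and Thbd at 169 and 69.1 CPM in positive and negative cells, whereas the portal markers Dll4 (90.4 and 156 CPM) and Efnb2 (85 and 163.5 CPM) were lower in positive cells.

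In control LSECs, none of the 5 members at 5 CPM or more in either class passed 2-fold in either direction (0 higher and 0 lower). Across all 9914 genes, 0.474% were at least 2-fold higher and 0.464% at least 2-fold lower in positive cells. Gas6 had the widest difference, at 478 CPM in positive and 296 CPM in negative cells, a log2 ratio of 0.69 (0.64 to 0.74). Its level went from 296 CPM in cells with 0 Wnt2 and Rspo3 UMIs to 414 CPM with 1, 520 CPM with 2 to 3 and 662 CPM with at least 4, and the intervals of these steps did not overlap.

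Hgf ran the other way in control LSECs. It was at 125 CPM in positive and 153 CPM in negative cells, a log2 ratio of -0.29 (-0.38 to -0.21), and its level over the same 4 steps was 153, 137, 117 and 91.2 CPM. Inhbb was at 37.6 and 43.9 CPM, a log2 ratio of -0.22 (-0.39 to -0.06). When cells were instead split by any UMI of the portal markers Dll4, Efnb2 or Ltbp4, Inhbb was at 45.5 CPM in the 2880 positive and 25.6 CPM in the 807 negative control cells, and Hgf at 149 and 115 CPM, while Gas6 was at 334 and 510 CPM. By both splits of control LSECs, Gas6 was thus higher on the central side and Hgf and Inhbb on the portal side. The clusters at the ends of the axis, described below, did not give this order for Hgf, which was at 94.6 CPM in the cluster with portal and arterial genes and 107 CPM in the Rspo3-led cluster, both below the 142.5 CPM of all control LSECs.

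Pros1 was nearly level along the axis in control, at 441.5 CPM in positive and 396 CPM in negative cells, a log2 ratio of 0.16 (0.11 to 0.21), and -0.03 (-0.09 to 0.03) by the portal split. Il33 differed by no more than counting error over the 2 classes, at 12.3 and 10.9 CPM, but reached 32.3 CPM in the 167 cells with at least 4 Wnt2 and Rspo3 UMIs against 7.71 CPM in those with 1. Fstl1, at 2.07 and 3.36 CPM, was too low for a firm statement. Its direction depended on the marker, since Rspo3 alone gave a log2 ratio of 1.49 and Wnt2 with Rspo3 gave -0.70 (-1.41 to -0.03).

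In Maf LSEC-KO LSECs, 2 of 6 members were at least 2-fold higher in Wnt2/Rspo3-positive cells (Gas6 and Il33) and 0 were at least 2-fold lower. Over all 10405 genes, 1.73% were at least 2-fold higher and 2.31% at least 2-fold lower. Gas6 was at 180 CPM in positive and 48.1 CPM in negative cells, a log2 ratio of 1.90 (1.75 to 2.05), but with Rspo3 alone as the marker the ratio was 0.02. The 173 cells with Wnt2 UMIs only had Gas6 at 201 CPM (183 to 221). The 27 with Rspo3 UMIs only were at 31.1 CPM (14.2 to 59.1), from 9 UMIs. Among these LSECs the difference was thus seen with Wnt2 and not with Rspo3 by itself. The Rspo3-led cluster, of which the Vwf rule took 83.8%, had Gas6 at 314 CPM and also Wnt2 at 462 CPM. Il33 was at 6.21 CPM in positive and 1.98 CPM in negative LSECs (1.65, 0.77 to 2.45), from 16 and 72 UMIs. Its ratio was 3.13 with Rspo3 alone and 0.57 without thinning. The positive cells were also enriched for cells that kept Maf. At least 5 Maf UMIs were found in 22.5% (17.1 to 28.7) of positive and 5.29% (4.48 to 6.20) of negative cells, and Maf was at 498 and 94.3 CPM. Among cells with 0 Maf UMIs, 133 positive and 2185 negative, the log2 ratio of Gas6 was 0.85 (0.58 to 1.11) and that of Il33 was 1.12 (-0.58 to 2.46) from 5 and 40 UMIs, and 0 members passed 2-fold at 5 CPM.

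By the Wnt2 and Rspo3 split, Hgf had opposite directions in the 2 libraries. In Maf LSEC-KO LSECs it was at 113 CPM in positive and 76.5 CPM in negative cells, a log2 ratio of 0.56 (0.38 to 0.73), against -0.29 in control, and the value among cells with 0 Maf UMIs was 0.75 (0.53 to 0.95). Pros1 was higher in positive cells, 320 against 233 CPM (0.46, 0.35 to 0.56), Inhbb was at 12.03 and 12.4 CPM, and Fstl1 at 9.70 and 13.8 CPM (-0.51, -1.15 to 0.07). Compared within the same class, positive cells had Hgf levels of 125 CPM (119 to 131, control) and 113 CPM (99.98 to 126, Maf LSEC-KO), with overlapping intervals, and negative cells had 153 CPM (148 to 159) and 76.5 CPM (73.7 to 79.4). Since Wnt2 and Rspo3 were themselves lower in the Maf LSEC-KO library, its positive class is a smaller and possibly different set of cells. By the portal split, Hgf in Maf LSEC-KO LSECs was at 78.9 CPM in positive and 78.7 CPM in negative cells. The Rspo3-led cluster of that library, of whose cells the Vwf rule took 83.8%, was at 66.3 CPM, below the 78.8 CPM of all its LSECs.

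**Figure D2:**
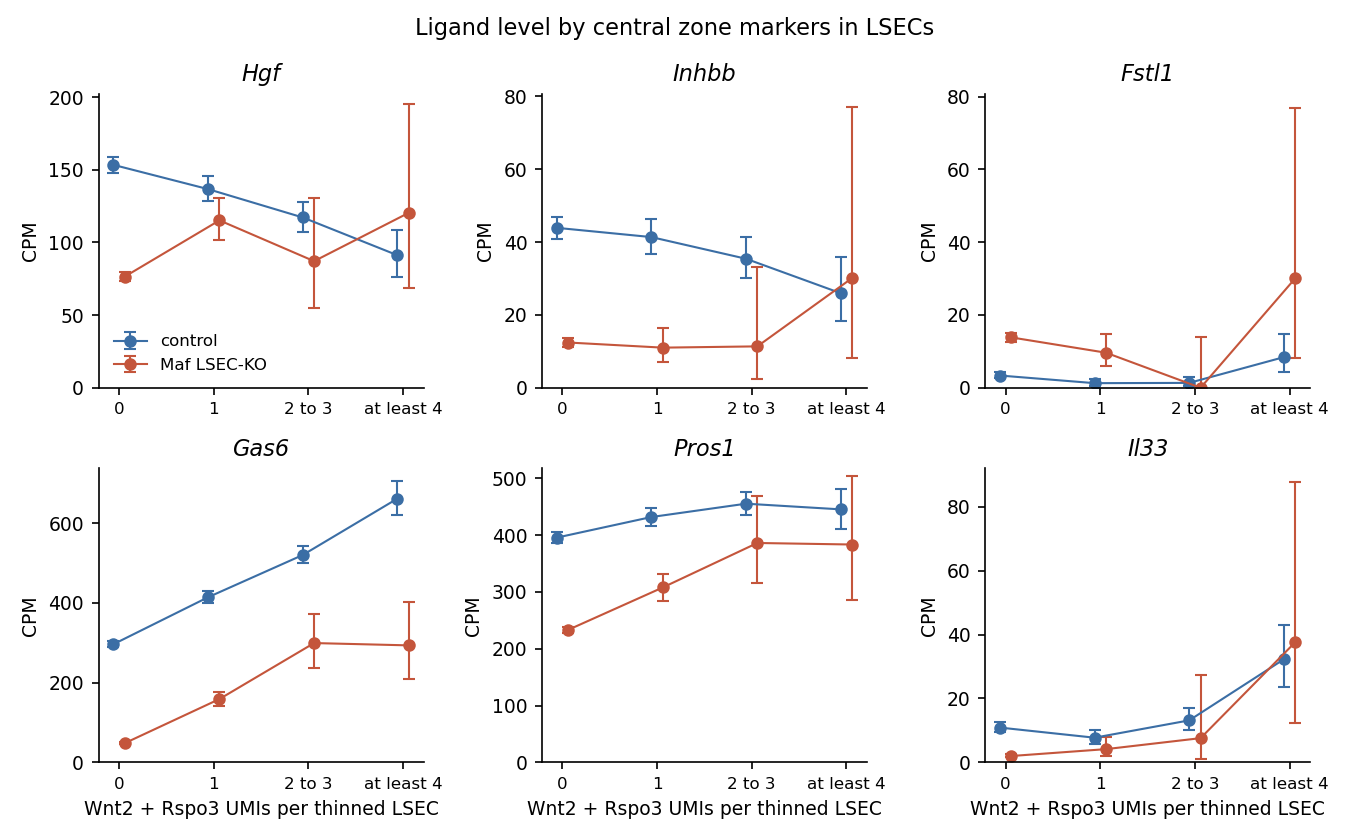
Level in CPM (linear axes) of 6 ligands in LSECs grouped by the number of Wnt2 and Rspo3 UMIs left after thinning to 2700 UMIs, in control and Maf LSEC-KO cells, with exact 95% counting intervals. Control Gas6 goes from 296 to 662 CPM and control Hgf from 153 to 91.2 CPM over the 4 steps, and the last Maf LSEC-KO step rests on 16 cells.

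The Vwf rule mattered for the Maf LSEC-KO zonal values. With Vwf-positive endothelial cells included, 380 cells were positive, and Fstl1 turned from lower to higher in them, at 115 against 20.5 CPM (log2 ratio 2.49, 2.34 to 2.64). Il33 was then at 30.2 and 4.45 CPM and Gas6 at 241 and 43.5 CPM. The remaining gene past 2-fold, Inhba, rested on 1 cell that held 44 UMIs. In control the same inclusion gave 9.36 and 7.14 CPM for Fstl1.

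The endothelial clusters of each library showed where along the vascular tree each ligand was highest. Clusters were built from the same counts, including these genes, so their levels are given as a description. In control, the cluster led by Rspo3, Wnt9b and Selp (504 cells) had the highest Gas6 level, 589 CPM. The cluster led by Adgrg6 and Jag1 (245 cells), genes of portal and arterial endothelium, had the lowest, 91.6 CPM. That cluster is called Gja5-led after its Maf LSEC-KO counterpart. The Gja5-led cluster held the highest Inhbb (80.1 CPM), Fstl1 (39.8 CPM) and Il33 (72.2 CPM) levels. Fstl1 and Il33 were also raised in the Rspo3-led cluster, at 33.5 and 34.4 CPM. Outside these 2 clusters, control Fstl1 was between 0 and 1.64 CPM and Il33 between 3.13 and 11.95 CPM.

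Control Hgf was at 189 CPM in the largest cluster (1392 cells, named after Cyp26b1 and Hmga2). It was between 94.6 and 121 CPM in the interferon-led, Rspo3-led, Gja5-led and cycling clusters. The 2 clusters of cells with few UMIs stood apart from each other, with Hgf at 276 CPM in the one led by hemoglobin genes and Malat1 (406 cells, median 3080 UMIs) and 47.2 CPM in the one with hemoglobin and hepatocyte genes (588 cells, median 3315 UMIs). Whether hepatocyte RNA or cell quality takes part in that contrast was not tested.

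In the Maf LSEC-KO library, Gas6 was between 23.9 and 61.0 CPM in 5 of 7 endothelial clusters. The exceptions were the Maf-retaining cluster (207 cells, Maf at 2344 CPM), with 319 CPM, and the Rspo3-led cluster (180 cells), with 314 CPM although Maf was at 15.1 CPM there. Fstl1 was at 232 CPM in the Rspo3-led cluster, 83.3 CPM in the Gja5-led cluster and between 11.3 and 23.9 CPM in the 4 other clusters with Maf at 29 CPM or less, against 0.576 CPM, or 1 UMI, in the Maf-retaining cluster. Il33 was at 62.3 CPM in the Rspo3-led and 27.9 CPM in the Gja5-led cluster, at 15.6 CPM in the Maf-retaining cluster and at no more than 1.85 CPM elsewhere.

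Clusters with the same names were compared across the libraries. Gja5 was among the very first genes of the Maf LSEC-KO cluster named after it but not of its control counterpart, whereas Adgrg6 and Jag1 were in both. Maf was lower in both pairs, with log2 ratios of -7.62 and -7.01, so that the lower Maf level extended to these vessel-associated clusters. Vwf was detected in 12.1% and 83.8% of cells of the Rspo3-led clusters and in 27.5% and 69.9% of the Gja5-led clusters of control and Maf LSEC-KO. In the Rspo3-led clusters the Maf LSEC-KO to control log2 ratio was -0.91 (-1.03 to -0.79) for Gas6, -0.37 (-0.81 to 0.06) for Inhbb, 2.79 (2.53 to 3.06) for Fstl1 and 0.86 (0.52 to 1.19) for Il33. In the Gja5-led clusters it was -1.36 (-1.68 to -1.05) for Gas6, -1.57 (-1.91 to -1.22) for Inhbb, 1.06 (0.71 to 1.43) for Fstl1 and -1.37 (-1.72 to -1.02) for Il33. Hgf was lower in both, with log2 ratios of -0.69 (-0.96 to -0.42) and -1.68 (-2.0 to -1.35), and so was Pros1, with -0.64 (-0.77 to -0.51) and -0.78 (-0.93 to -0.63). Il33 thus had opposite signs in the 2 pairs, and Fstl1 was higher and Gas6 lower in both.

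**Figure D3:**
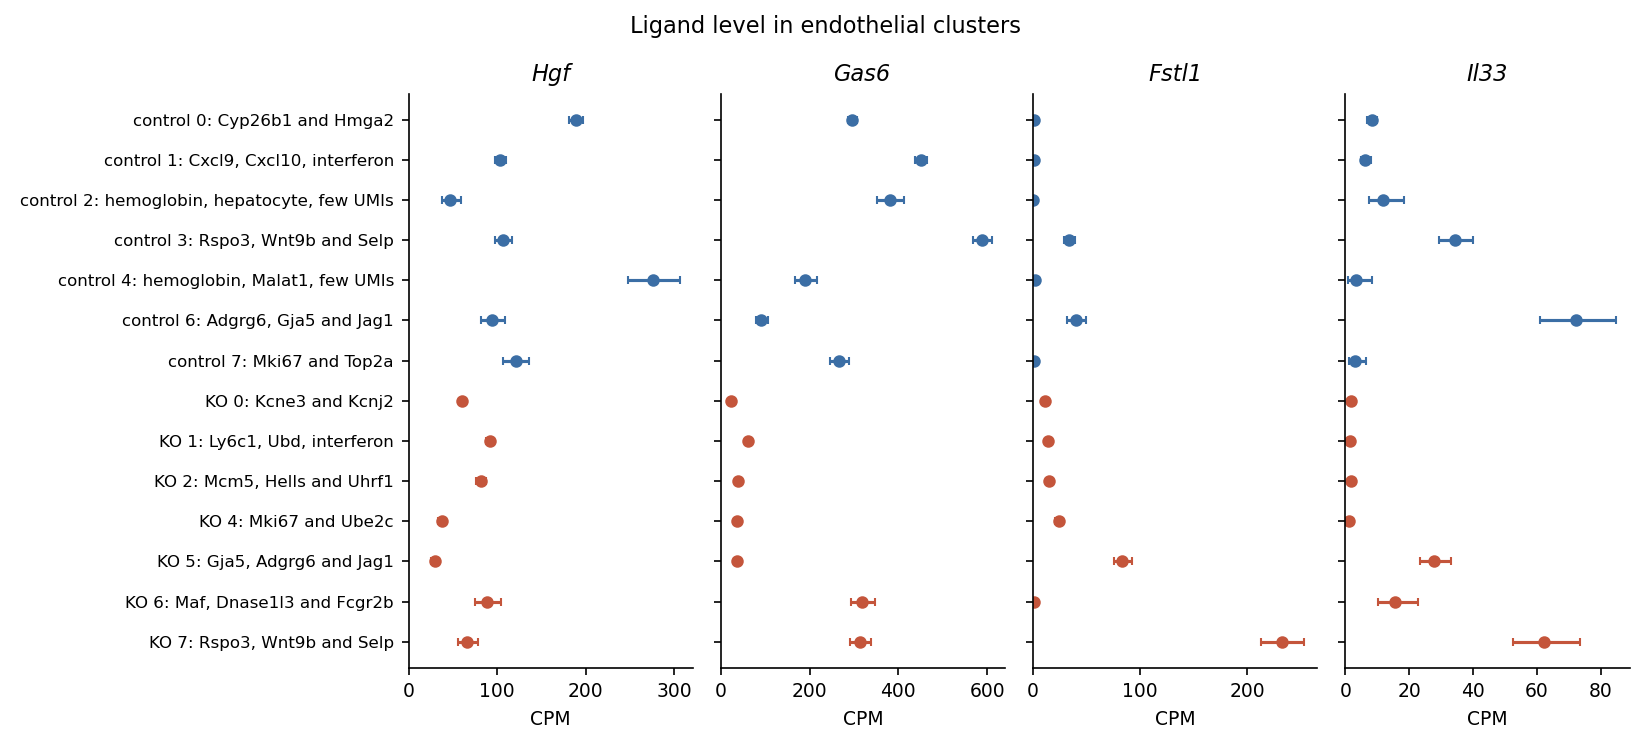
Level in CPM (linear axes, exact 95% counting intervals) of 4 ligands in each endothelial cluster of the control (blue) and Maf LSEC-KO (red) libraries, named by leading genes. Fstl1 and Il33 stand out in the Rspo3-led and Gja5-led clusters of both libraries, and Gas6 is above 300 CPM in 2 Maf LSEC-KO clusters, those led by Maf and by Rspo3.

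Other cell types were few after enrichment and carried some endothelial RNA. Relative to LSECs, the summed level of 14 endothelial genes was 32.3% in control and 16.6% in Maf LSEC-KO Kupffer cell-like cells, 65.8% and 26.4% in B cell-like cells, and 44.6% and 48% in stellate-like cells. Levels of a ligand at or below such a fraction of its LSEC level cannot be told apart from this carry-over. Among classes of at least 50 cells, 6 of 6 measurable members in control and 6 of 8 in Maf LSEC-KO had their highest level in LSECs or Vwf-positive ECs, against 67.9% of 11263 and 37.2% of 12750 genes. Among classes of at least 20 cells the counts were 5 of 7 and 5 of 8, as Gas6 was then highest in cholangiocyte-like cells. The control set held LSECs, Vwf-positive ECs and Kupffer cell-like cells, and the Maf LSEC-KO set also T/NK cell-like, neutrophil-like and monocyte-like cells.

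Hgf was highest in stellate-like cells in both libraries. Hepatic stellate cells are a known source of HGF. The 9 control cells were at 1802 CPM (1581 to 2045) and the 14 Maf LSEC-KO cells at 266 CPM (207 to 336), with a median of 27 and 2 UMIs per cell and ranges of 0 to 51 and 0 to 16. The 2 sets of cells were not alike. Acta2 and Myh11, genes of smooth muscle and activated stellate cells, had 0 UMIs in the control set and were at 3307 and 1582 CPM in the Maf LSEC-KO set, from 4 and 5 of its 14 cells, while the quiescent stellate markers Reln and Lrat were at 1960 and 954 CPM in control and 739 and 524 CPM in Maf LSEC-KO. Whether the makeup of these few cells takes part in the Hgf difference was not tested. LSECs were second, and since they were far more numerous they held 88.6% of control and 75.8% of Maf LSEC-KO Hgf UMIs. In these enriched libraries that share reflects the sort.

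Hgf in Kupffer cell-like cells was at 54.6 CPM (43.5 to 67.6) in control, 38.3% of the LSEC level and close to the endothelial carry-over of 32.3%. In the Maf LSEC-KO library it was at 45.1 CPM (36.9 to 54.6), 57.2% of the LSEC level against a carry-over of 16.6%. Gas6 in these cells was at 112 and 43.4 CPM, which is 30.5% and 76.4% of the LSEC level. In the Maf LSEC-KO library the levels of both ligands in Kupffer cell-like cells, relative to LSECs, were above that of the endothelial genes. Other sources of free RNA were not tested.

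Gas6 was highest outside the endothelium. The 20 control cholangiocyte-like cells were at 901 CPM (762 to 1059) and the 36 of the Maf LSEC-KO library at 1248 CPM (1152 to 1350), and 10 mesothelial-like cells of the Maf LSEC-KO library had 2040 CPM (1863 to 2230). Lymphatic-like ECs (16 Maf LSEC-KO cells) were at 404.5 CPM. Control LSECs and Vwf-positive ECs, at 369 and 383 CPM, did not differ beyond counting error, whereas in Maf LSEC-KO the Vwf-positive ECs were slightly above LSECs, at 69.4 against 56.9 CPM. Since ECs prevailed, LSECs still held 88.9% of control Gas6 UMIs but 46.9% in Maf LSEC-KO, where 24.3% came from the 1131 Vwf-positive ECs (4.88% from 160 in control), 13.1% from the 36 cholangiocyte-like and 10.2% from the 10 mesothelial-like cells.

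Fstl1 marked mesenchymal cells, lymphatic-like ECs and Vwf-positive ECs. It was at 255 CPM in control and 262 CPM in Maf LSEC-KO stellate-like cells, which did not differ beyond counting error, at 445 CPM in lymphatic-like ECs and at 147 CPM in mesothelial-like cells. Control Vwf-positive ECs were at 106 CPM (91 to 122) and those of the Maf LSEC-KO library at 64.1 CPM (60.3 to 68.1). A Vwf UMI was also held by 6.21% of Maf LSEC-KO but 0% of control T/NK cell-like and neutrophil-like cells. The Vwf-positive class may therefore not be alike in the 2 libraries. In control, 160 Vwf-positive ECs held 58.9% of all Fstl1 UMIs against 29.1% in the 4092 LSECs.

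Il33 was highest in control in Vwf-positive ECs, at 76.1 CPM (63.7 to 90.3), and in Maf LSEC-KO in mesothelial-like cells, at 168 CPM (120 to 229, 25 of its 40 UMIs in 1 cell), with 17.01 CPM (15.1 to 19.1) in Vwf-positive ECs. Inhbb was at 47.7 CPM in control Vwf-positive ECs and 41.3 CPM in LSECs, within counting error of each other, and at 22.4 and 12.4 CPM in Maf LSEC-KO, where the intervals did not overlap. Pros1 in control was at 411 CPM in LSECs, above Vwf-positive ECs at 335 CPM (308.5 to 364), whereas the interval of the 9 stellate-like cells, at 323 CPM (234 to 435), overlapped both. In Maf LSEC-KO, lymphatic-like ECs (283 CPM, 209.5 to 374) and LSECs (238.5 CPM) overlapped, followed by Vwf-positive ECs at 214 CPM.

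The 3 genes that LSECs nearly lacked were found in other cells of the Maf LSEC-KO library. Fst was at 193.5 CPM in mesothelial-like cells, present in 8 of 10, which held 92% of the Fst UMIs of that library. Inhba was at 152 CPM in cholangiocyte-like cells, in 18 of 36, and at 30.7 CPM in the 20 control cells, from 5 UMIs. The Inhba level of 68.5 CPM in monocyte-like cells came from 37 UMIs in 1 cell of 70. Il6 had 7 UMIs in 2 monocyte-like cells and 4 in Kupffer cell-like cells, 11 UMIs in all, and 2 UMIs in the control library. Hence no class gave an Il6 level that rested on more than a few cells.

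**Figure D4:**
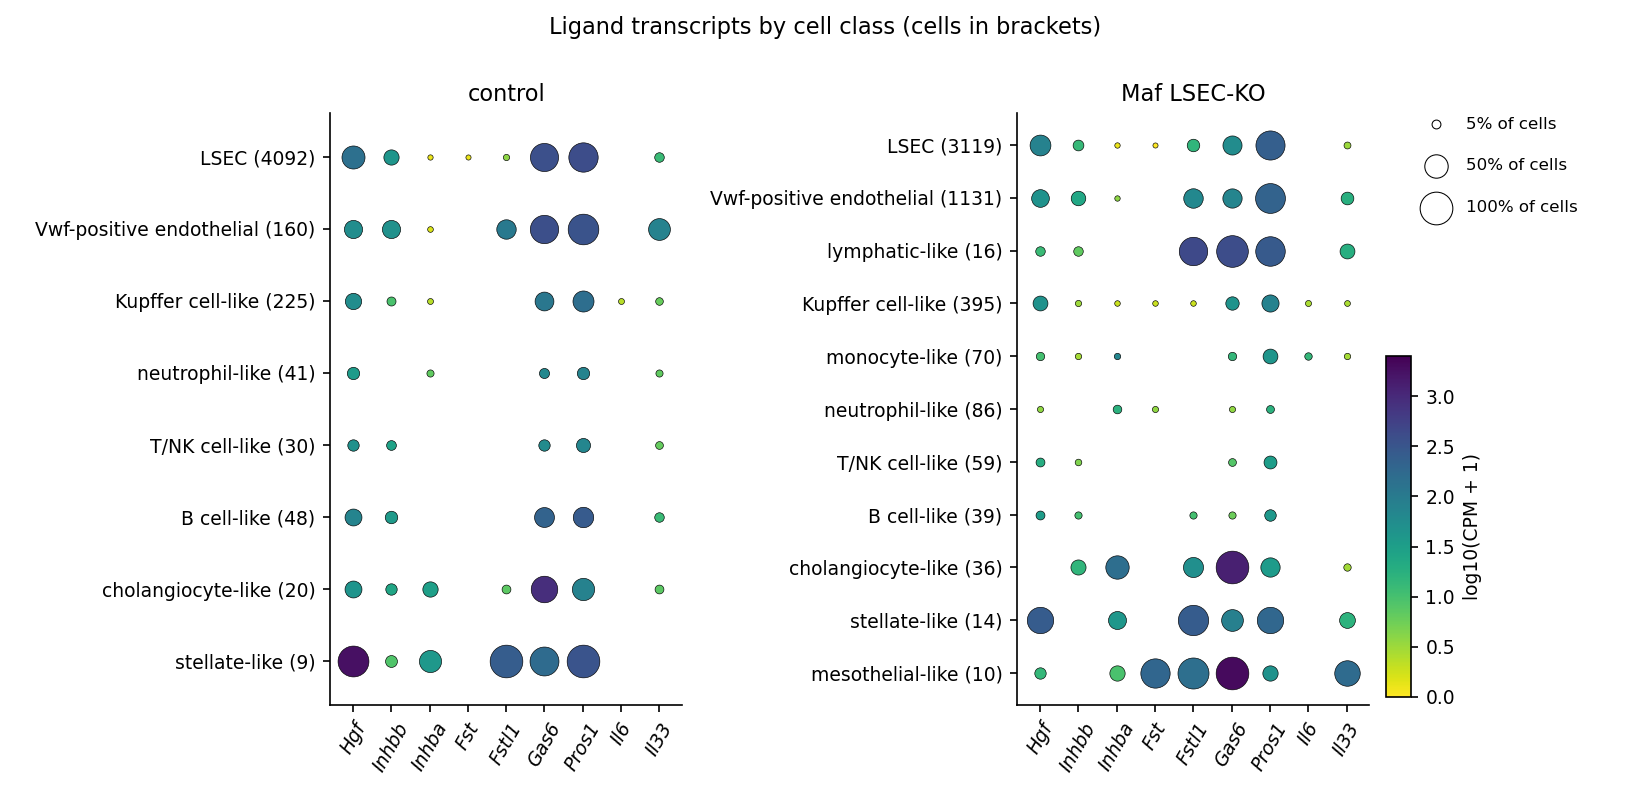
Level of the 9 genes by cell class in the control and Maf LSEC-KO libraries. Colour shows log10(CPM + 1), dot area the percent of cells with a UMI, no dot 0 UMIs, and brackets the number of cells. Hgf is darkest in stellate-like cells, Gas6 in cholangiocyte-like and mesothelial-like cells, and Fst in mesothelial-like cells.

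Receptors, antagonists and transducers of the same pathways were examined as a list of 39 genes, of which 26 reached 5 CPM in LSECs of either library. In Maf LSEC-KO LSECs, 3 were at least 2-fold lower (Mertk, Il6st and Tgfbr3) and 1 at least 2-fold higher (Socs3), and the median log2 ratio of the 26 was -0.095. Of all genes at that level, 5.01% were at least 2-fold lower and 11.5% higher, with a median of 0.14. Mertk, the TAM receptor of macrophages and LSECs, was at 347 CPM in control and 81.9 CPM in Maf LSEC-KO LSECs (log2 ratio -2.08, -2.14 to -2.03), the same direction as its ligand Gas6. In Maf LSEC-KO Kupffer cell-like cells Mertk was at 454 CPM and Axl at 658 CPM, against 253 and 299 CPM in control. The endothelial carry-over described above was larger in these cells of the control library, and its part in this difference was not tested. Axl in LSECs was at 9.27 and 9.76 CPM and Tyro3 below 5 CPM. Ggcx and Vkorc1, which serve the vitamin K-dependent carboxylation of Gas6 and protein S, had log2 ratios of -0.33 (-0.49 to -0.17) and 0.22 (0.13 to 0.31).

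The IL-6 signal transducer Il6st was at 1631 CPM in control and 527 CPM in Maf LSEC-KO LSECs (-1.63, -1.65 to -1.61), while the feedback inhibitor Socs3 was at 36.9 and 90.8 CPM (1.30, 1.20 to 1.40). Il6ra, at 4.002 and 3.67 CPM in LSECs, was highest in neutrophil-like and monocyte-like cells. Jak1 was at 1446 and 898 CPM, Stat3 at 117 and 89.5 CPM, and the sheddases Adam10 and Adam17 had log2 ratios of 0.16 and 0.20. None of these 4 passed 2-fold.

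Of the 14 activin partners, 9 were measurable in LSECs, of which 1 was at least 2-fold lower and 0 higher, against 5.01% and 11.5% of all genes. Tgfbr3, a co-receptor that binds inhibin and TGF-β, was at 238 CPM in control and 100.5 CPM in Maf LSEC-KO LSECs (-1.25, -1.30 to -1.19). The activin receptors Acvr1b, Acvr2a and Acvr2b were at 10.1, 35.4 and 16.1 CPM in control and 14.2, 25.6 and 11.1 CPM in Maf LSEC-KO LSECs, and Smad7, an inhibitory Smad, at 270 and 436 CPM (0.69, 0.65 to 0.73). Inhbc, Inhbe and Fstl3 had 1 to 4 UMIs each in the LSECs of each library. The remaining measurable members Bambi, Smad2, Smad3 and Smad4 lay between -0.41 and 0.69.

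The HGF receptor Met was nearly absent from LSECs, with 5 and 2 UMIs, and was highest in cholangiocyte-like cells, at 36.8 CPM (6 UMIs) in control and 102 CPM in Maf LSEC-KO. The HGF-activating proteases Hgfac, St14 and Hpn and the inhibitor Spint1 were also highest in cholangiocyte-like cells of both libraries. Among the top genes of these clusters were 2 hepatocyte markers in control and 3 in Maf LSEC-KO. Sub-clusters rich in hepatocyte RNA were set apart and not ranked. Plau and Spint2, the HGF partners measurable in LSECs, had log2 ratios of -0.49 (-0.72 to -0.26) and -0.05 (-0.13 to 0.03). Dip2a, a proposed Fstl1 receptor, was at 30.2 and 20.6 CPM. The IL-33 receptor gene Il1rl1 had 0 and 3 UMIs in LSECs, and its partners Il1rap, Myd88, Irak1 and Irak4 had log2 ratios from -0.42 to 0.59, none past 2-fold.

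The genes whose levels most resembled each ligand were sought over 9 profiles, 3 control and 6 Maf LSEC-KO classes of at least 50 cells, by Pearson's r of log2(CPM + 5) among 9764 genes at 20 CPM or more in some profile. The values describe 9 points that share libraries, so that many genes fit closely. For Pros1, 295 genes had r above 0.95, led by Mid2 (0.998), Tom1l2 and Pard3b (0.995 each). Gas6 was nearest to Man2a1 (0.988), Mid1 (0.981) and Gstk1 (0.98), Inhbb to Layn (0.99), Plscr4 (0.988) and Chpt1 (0.984), and Hgf to Sec61a2 (0.983), Psd3 (0.978) and Dusp7 (0.97). Fstl1 was nearest to Synpo (0.976), Ednrb (0.975) and Fbln2 (0.972), and Il33 to Ackr3 (0.992), Ctnnal1 (0.983) and Nqo1 (0.975). The Inhba pattern, led by Gpr141b (0.977), Gm9530 (0.975) and Gm34680 (0.972), rested on the single monocyte-like cell named above.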

How the data were processed

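The deposited matrices hold raw counts of UMIs per gene and barcode, which the authors made with Cell Ranger 6.0.2 on mm10 from 10x 3′ libraries. The submitters' processing notes also name Seurat 5.0.1. The 9 genes and all gene lists were chosen with earlier results of these data known. The study's filter of 1500 UMIs and 750 genes left 4961 control and 5423 Maf LSEC-KO barcodes. Subtraction of empty-droplet RNA, which the study's methods describe, was not applied. Scrublet (scanpy 1.11.5) gave 0 automatic doublet calls in either library, a count that would also stand if no threshold was found. The 225 and 308 barcodes with the highest scores, matching loading rates of 4.53% and 5.67%, were therefore removed. Each library was clustered in Seurat 5.3.0 (R 4.3.3), and clusters were named after their leading genes were seen. Sub-clusters of endothelial cells with hepatocyte or platelet RNA or led by Sparcl1, Col15a1 or Igfbp3 (111 control and 140 Maf LSEC-KO cells) were set apart. The 51 and 16 Maf LSEC-KO cells of the last kind also had Cxcl12 among their leading genes. The paper describes a secreting knockout subcluster, labelled by Sparcl1 and with Cxcl12 expression. Whether these cells belong to it was not tested, and their ligand levels are not given. With all cells set apart included, log2 ratios between the libraries were -2.69 for Gas6, -1.73 for Inhbb and -2.38 for Il33. Those of Fstl1, Hgf and Pros1 were 2.43, -0.86 and -0.79. CPM used all UMIs outside mitochondrial and ribosomal protein genes as the denominator. Levels were compared within a gene, not between genes, apart from statements on which genes were measurable. Intervals are exact (Poisson for levels, conditional binomial for ratios, Clopper-Pearson for shares) and cover counting error only. A gene passed in a comparison at 2-fold with at least 5 CPM on either side. With 1 library per condition no test was made and no p-value is given. edgeR 4.0.16 gave TMM factors for 1 alternative. Positions are from GENCODE M21 and promoter sequences from RefSeq GRCm38.p6. Genes named in the text were the 9 members, the listed partners at 5 CPM or more in LSECs, zonal markers, and the 3 genes nearest in pattern to each member. Genes outside that rule (Met, Il6ra, Tyro3, stellate markers and others) were named after their values were seen. The ratio, its interval and the thinning were tested on simulated data.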

Additional observations from a re-analysis of the deposited data

Results flagged for a closer look

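By the split on Wnt2 and Rspo3, Hgf differed in direction between the libraries. Its log2 ratio of Wnt2/Rspo3-positive to negative LSECs was -0.29 in control and 0.56 in Maf LSEC-KO, and neither 95% counting interval held 0. The difference between them was not tested, since each condition is 1 library. Among the Maf LSEC-KO cells with 0 Maf UMIs the value was 0.75. The portal split showed no such difference in Maf LSEC-KO LSECs, with Hgf at 78.9 CPM in positive and 78.7 CPM in negative cells, and the Rspo3-led cluster of that library was at 66.3 CPM.

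Barcodes below the cell filter (703 control, 1668 Maf LSEC-KO), which entered no comparison, held Fstl1 at 23.6 CPM (14.96 to 35.4, 23 UMIs) in the Maf LSEC-KO library, whereas the control barcodes held 0 UMIs, which allows up to 6.92 CPM, taking 3 counts as the limit. The Fstl1 level of Maf LSEC-KO LSECs was 13.9 CPM.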

How the results depend on the processing

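Over 15 alternatives of scaling, cell choice and doublets, the signs of the 6 Maf LSEC-KO to control ratios were kept. Gas6, Inhbb, Il33 and Fstl1 stayed past 2-fold in all 15, with log2 ratios of -3.02 to -2.51, -1.93 to -1.44, -2.92 to -1.14 and 1.86 to 3.25. The -1.14 of Il33 came with Vwf-positive cells. Hgf (-1.05 to -0.71) passed 2-fold in 2, with UMIs of all genes and with Vwf-positive cells, and Pros1 (-0.98 to -0.68) in none. The scalings shifted every log2 ratio by -0.19 to -0.12. The count of members 2-fold higher in Wnt2/Rspo3-positive control LSECs was 0 and became 2 with Rspo3 alone, where Fstl1 (1.49) and Il33 (1.73) passed. In Maf LSEC-KO LSECs the count of 2 became 1 with Rspo3 alone (Gas6 at 0.02, from 40 positive cells), 1 without thinning, 4 with Vwf-positive cells, and 0 in cells without Maf UMIs. That alternative, and those that included the sub-clusters set apart or left out the low-UMI clusters or the Rspo3- and Gja5-led clusters (the source of the Fstl1 value of 3.25), were chosen after seeing the data. In control, Fstl1, Pros1 and Il33 changed sign in 3, 1 and 1 of 8 alternatives, none of them past 2-fold in the main comparison, and Inhbb and Fstl1 in 4 and 3 of 8 in Maf LSEC-KO. The causes were not tested. No paired analysis was possible because each condition is 1 library. Genes under about 5 CPM, among them Inhba, Fst and Il6, are limited by depth.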
